A study of Mus musculus with 18 samples.

Results

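The TGF-beta pathway is described here by 10 genes that were chosen by name, of 37991 genes with deposited counts. They comprise the ligands *Tgfb1* and *Tgfb3*, the receptors *Tgfbr1*, *Tgfbr2* and *Tgfbr3*, the signal-transducing Smads *Smad2* and *Smad3*, and the pathway inhibitors *Smad7*, *Ski* and *Skil*. All 10 passed the filter on low counts, a group mean of 3 or more normalized counts in 1 or more groups, and were among the 17240 genes tested.

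TGF-beta is secreted as a latent dimer that must be released before it can bind the type II receptor, encoded by *Tgfbr2*, which then recruits and phosphorylates the type I receptor, encoded by *Tgfbr1*. The activated receptor phosphorylates SMAD2 and SMAD3, which enter the nucleus with SMAD4 and regulate transcription. SMAD7 blocks the type I receptor, and SKI and SnoN, the product of *Skil*, repress transcription by binding Smad complexes. In T cells, TGF-beta is known for restraining activation and for promoting the differentiation of regulatory and tissue-resident cells.

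RNA-seq was performed on splenic CD4+ T cells, enriched with magnetic beads, of Tg4 (Tg4-H2u) mice, male and female and 6 to 12 weeks old, with 3 libraries in each of 6 groups. These mice carry a transgenic TCR for a peptide of myelin basic protein, so most of their CD4+ T cells share 1 specificity, and all groups share this transgene. Resting naive cells (N0) came from mice injected with PBS, and resting tolerized cells (T0) from mice given 7 subcutaneous doses of the MBP Ac1-9[4Y] peptide in escalating amounts, both with a last injection of PBS 2 h before harvest. For NAg and TAg cells the last injection was peptide, so the antigen (Ag) response was measured 2 h after exposure in vivo. For NPI and TPI cells, naive and tolerized cells were cultured for 2 h with 20 ng/ml PMA and 2 uM of the calcium ionophore A23187 (PI), which activate protein kinase C and calcium signaling without the TCR. There was no group cultured without PI, so the PI treatment and the culture itself cannot be told apart.

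Total counts ranged from 10758571 to 24119489 per library and were highest after PI. The 7 markers of T cell identity, including *Cd3e*, *Cd4* and *Lck*, were present in every group but moved with the stimuli. Their summed normalized counts were 29868 to 31066 in N0, 25660 to 30795 in T0, 15735 to 17589 in NAg, 19797 to 23206 in TAg, 50615 to 56284 in NPI and 55635 to 58727 in TPI. Of the 7, 1 was called higher and 6 lower in NAg than N0, beside 32.1% and 33.4% of all tested genes. In TAg against T0, 0 were higher and 5 lower, beside 29.9% and 29.8%. In NPI against N0, 4 were higher and 2 lower, beside 28.6% and 32.7%. In TPI against T0, 5 were higher and 2 lower, beside 32% and 36.3%. The sum after PI rose mostly with *Cd28*, at means of 4260 in N0 and 26002 in NPI, and 4032 in T0 and 26034 in TPI. In the same groups *Cd4* was at 6943 and 5114, and 5154 and 4281. Neutrophil transcripts were more abundant in tolerized than naive cells, with summed normalized counts of 10 markers of 75.4 to 183 in N0 and 1744 to 3050 in T0, 140 to 393 in NAg and 2280 to 4285 in TAg, and 63.7 to 173 in NPI and 397 to 673 in TPI. In NPI, *Ngp*, *Ltf*, *Camp* and *Ly6g* of this list were at 0. In contrast, *Mpo* went from a mean of 25.8 in N0 to 85.5 in NPI, and *Elane* from 3.36 to 12.5. Of the 10 neutrophil markers, 2 were called higher and 5 lower in NPI than N0, beside 28.6% and 32.7% of all tested genes. The sums of 5 regulatory T cell markers were 1499 to 2918 in N0 and 5334 to 8081 in T0, 25408 to 29910 in NAg and 29984 to 31714 in TAg, and 6805 to 8212 in NPI and 19343 to 22571 in TPI. After Ag most of this sum was *Il2ra*, at means of 373 in N0, 24759 in NAg and 22561 in TAg. *Foxp3* went from 263 in N0 to 694 in NAg, *Ikzf2* from 1286 to 1593, *Ikzf4* from 173 to 751 and *Capg* from 223 to 150. Between cell states, 4 of the 5 markers were called higher at rest, 2 after Ag and 4 after PI. The shares of all tested genes called higher were 8.42%, 20.9% and 18.2%. In NAg against N0, 3 of the 5 were called higher and 1 lower, beside 32.1% and 33.4% of all tested genes. Reads of Y-linked genes outnumbered those of *Xist* in 2 of the T0 libraries, in 1 TAg library and in all 6 PI libraries, but in no N0 or NAg library, so sex changed together with PI in the naive cells.

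Reference promoters are shown for the members whose transcripts rose with both stimuli in both cell states, as described below. These were *Tgfb1*, *Tgfbr1*, *Smad3* and *Skil*. The sequences run from 250 bases before to 50 bases from the annotated start, were taken from RefSeq (GRCm38.p6), and each matched the NCBIM37 genome of the deposited counts exactly at 1 place. The strand shown is that of the gene. Capitals mark matches to 5 motifs searched on both strands, AP-1 (TGANTCA), CRE (TGACGTCA), the SMAD-binding motif (CAGAC), NFAT (GGAAAA) and EGR (GCGNGGGCG), none of which contains another.
*Tgfb1*, chr7:26471771-26472070, plus strand: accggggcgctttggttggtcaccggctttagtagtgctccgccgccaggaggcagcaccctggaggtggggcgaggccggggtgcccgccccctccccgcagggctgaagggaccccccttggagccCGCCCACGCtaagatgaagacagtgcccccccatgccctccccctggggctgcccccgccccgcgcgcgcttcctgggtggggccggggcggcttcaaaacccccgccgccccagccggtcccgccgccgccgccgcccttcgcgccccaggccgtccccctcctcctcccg
*Tgfbr1*, chr4:47365844-47366143, plus strand: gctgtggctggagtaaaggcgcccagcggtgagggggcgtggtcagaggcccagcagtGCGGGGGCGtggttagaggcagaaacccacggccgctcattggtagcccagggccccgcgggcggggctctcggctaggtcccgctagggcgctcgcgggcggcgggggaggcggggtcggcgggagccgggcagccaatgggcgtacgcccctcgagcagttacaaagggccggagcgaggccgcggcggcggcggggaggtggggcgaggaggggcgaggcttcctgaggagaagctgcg
*Smad3*, chr9:63605752-63606051, minus strand: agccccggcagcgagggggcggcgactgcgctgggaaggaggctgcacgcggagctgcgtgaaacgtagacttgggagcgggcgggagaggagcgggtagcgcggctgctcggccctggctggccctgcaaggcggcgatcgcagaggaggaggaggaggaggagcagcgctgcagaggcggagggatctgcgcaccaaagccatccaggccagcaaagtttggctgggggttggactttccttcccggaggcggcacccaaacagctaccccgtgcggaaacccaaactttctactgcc

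The *Tgfb1* promoter held 1 EGR match, 122 bases before the start, and the *Tgfbr1* promoter held 1, 192 bases before the start. A second annotated start of *Tgfbr1* (chr4:47398838-47399137) had 1 SMAD-binding motif and no EGR match, and the *Smad3* promoter had no match to any of the 5 motifs. Of 32851 promoters of this length, 5.55% held an EGR match, 7.81% an AP-1 match, 1.79% a CRE match, 49.6% a SMAD-binding motif and 23.4% an NFAT match. No sequence is shown for *Skil*. A match describes the letters of the window only.

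Both stimuli changed most of these genes, and they did so in different patterns. After Ag in vivo, transcripts of *Tgfb1*, *Tgfbr1*, *Smad2*, *Smad3* and *Skil* rose in both cell states, whereas those of *Tgfbr2*, *Tgfbr3*, *Smad7* and *Ski* fell. After PI, all 3 inhibitors rose strongly and neither *Tgfbr2* nor *Tgfbr3* passed the test, although both were called lower with library totals in place of TMM. A gene counts as called here if its p from the quasi-likelihood test of edgeR, adjusted by Benjamini-Hochberg over all tested genes, was under 0.05. In NAg against N0, 5 of 10 members were called higher and 4 lower, beside 32.1% and 33.4% of all tested genes. In TAg against T0 the counts were also 5 and 4, beside 29.9% and 29.8%. In NPI against N0, 8 were higher and 0 lower, beside 28.6% and 32.7%, and in TPI against T0, 7 were higher and 0 lower, beside 32% and 36.3%. For both PI comparisons 0 members were also lower at an unadjusted p under 0.05 in edgeR and at an adjusted p under 0.05 in DESeq2, but 3 were lower with library totals in place of TMM, as given below. The NAg and NPI comparisons share the N0 libraries, and the TAg and TPI comparisons share the T0 libraries.

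**Figure D1:**
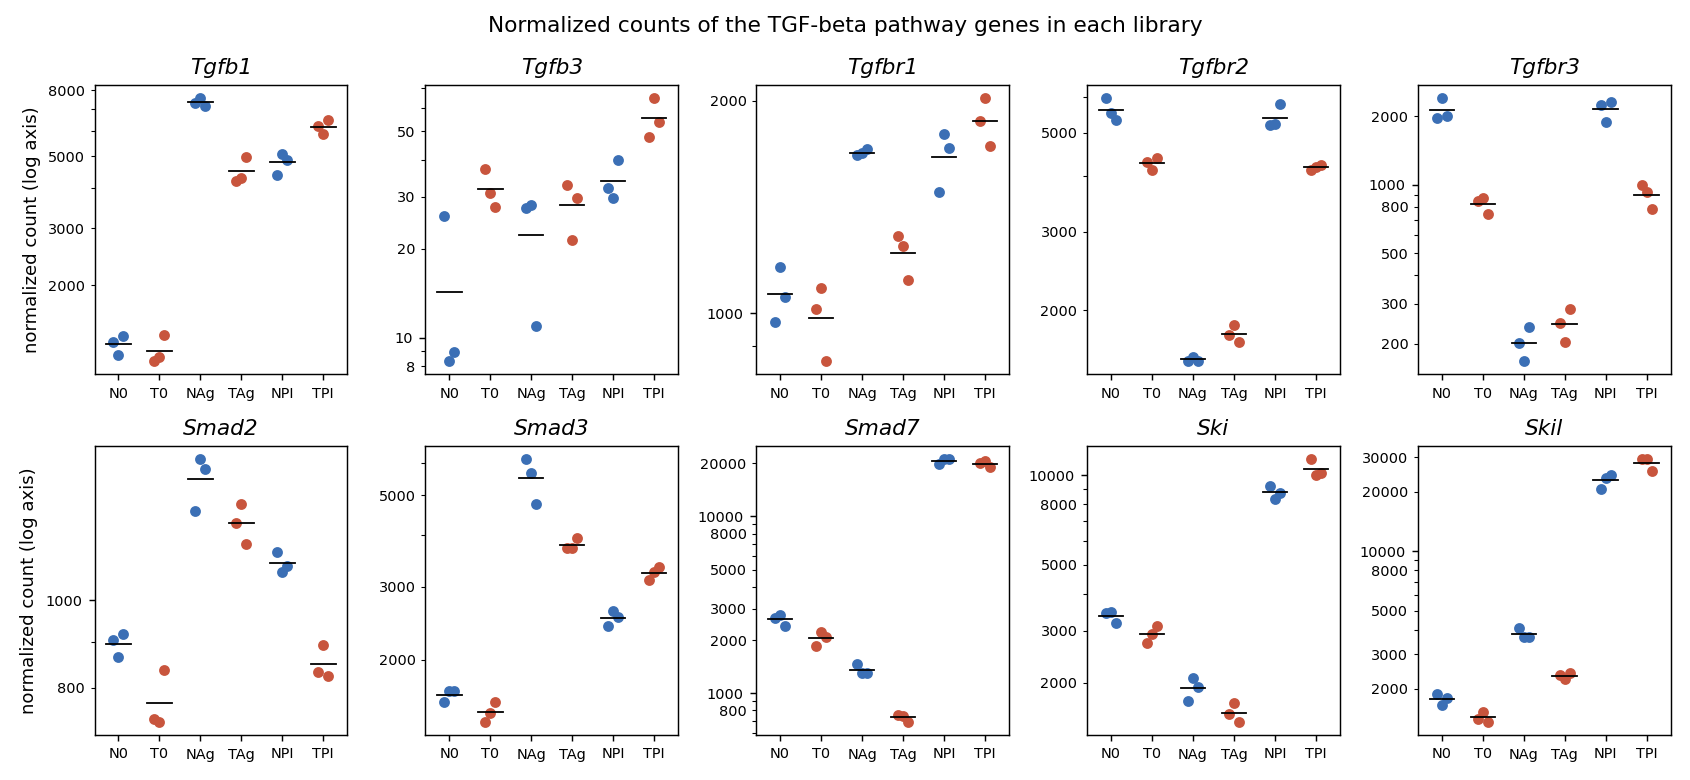
Normalized counts (vertical log axis, a separate range for each gene) of the 10 genes in each library of the 6 groups, with naive libraries in blue, tolerized libraries in red and the group mean as a black line. *Tgfbr2* and *Tgfbr3* lie lowest in NAg and TAg, and *Smad7*, *Ski* and *Skil* highest in NPI and TPI.

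*Tgfb1* (ENSMUSG00000002603, chr7:26472021-26490096) encodes the main TGF-beta ligand of T cells. Its normalized counts were 1337, 1222 and 1391 in N0, 1168, 1205 and 1400 in T0, 7298, 7557 and 7160 in NAg, 4209, 4296 and 4968 in TAg, 4389, 5096 and 4871 in NPI, and 6202, 5847 and 6476 in TPI. The resting groups overlapped, every stimulated library lay above every resting one, and the order of naive and tolerized cells was opposite for the 2 stimuli. Ag raised *Tgfb1* 5.57-fold in naive cells (log2 fold change 2.48 ± 0.09 SE) and 3.57-fold in tolerized cells (1.84 ± 0.08). PI raised it 3.63-fold in naive and 4.91-fold in tolerized cells. TAg was 1.63-fold lower than NAg (log2 fold change -0.71 ± 0.08, edgeR adjusted p = 2.63e-07), and TPI was 1.29-fold higher than NPI (0.37 ± 0.08, adjusted p = 0.000696). Of other cell types with *Tgfb1* transcripts, platelets were followed by the summed counts of 7 markers, which were 202 to 795 in N0, 396 to 400 in T0, 265 to 924 in NAg, 271 to 474 in TAg, 77.2 to 91.5 in NPI and 105 to 117 in TPI. None of the 7 was called after Ag or between cell states. After PI, 7 were lower in NPI than N0 and 6 in TPI than T0, beside 32.7% and 36.3% of all tested genes. The part of platelets, or of any other cell type, in the level of *Tgfb1* was not tested.

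*Tgfb3* (ENSMUSG00000021253, chr12:87397694-87419991) encodes a second ligand and was the least abundant member, with 8 to 26 reads per library in N0 and 59 to 74 in TPI. Normalized counts were 25.8, 8.35 and 8.92 in N0 and 37.1, 30.9 and 27.8 in T0. The T0 libraries lay above all N0 libraries, 1 of which was close to them. The difference was 2.21-fold (log2 fold change 1.14 ± 0.36, edgeR adjusted p = 0.0263), and the call was lost when N0 replicate 2 or 3 or T0 replicate 1 or 2 was left out. Without N0 replicate 1 the log2 fold change was 1.87, and with erythroid and myeloid marker scores in the model it was 0.52 and was not called. After Ag, *Tgfb3* was at 27.6, 28.2 and 11 in NAg and 33.0, 21.5 and 29.7 in TAg, and neither Ag response passed the test, although that of naive cells did without N0 replicate 1 (1.29) or NAg replicate 3 (0.95). After PI it was at 32.2, 29.7 and 39.9 in NPI and 47.7, 64.8 and 53.7 in TPI, with a log2 fold change of 1.24 ± 0.36 in naive cells (adjusted p = 0.00464) and 0.78 ± 0.31 in tolerized cells (adjusted p = 0.0279). Leaving out T0 replicate 2 or 3 or TPI replicate 2 or 3 ended the call in tolerized cells. So did sex as a covariate (0.72, adjusted p = 0.0551) and the marker scores (1.34, adjusted p = 0.186). The call in naive cells was lost with library totals in place of TMM (0.66, adjusted p = 0.128) and with sex as a covariate (1.03, adjusted p = 0.0982), and its estimate was 1.92 without N0 replicate 1. In tolerized cells the estimate with library totals was -0.02.

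*Tgfbr1* (ENSMUSG00000007613, chr4:47366094-47427803) encodes the type I receptor kinase. It was at 974, 1163 and 1056 in N0, 1014, 1085 and 856 in T0, 1673, 1686 and 1709 in NAg, 1287, 1247 and 1116 in TAg, 1486, 1793 and 1716 in NPI and 1871, 2017 and 1725 in TPI. The resting groups overlapped, as did the PI groups, but NAg lay above TAg without overlap. *Tgfbr1* was 1.59-fold higher in NAg than N0 (log2 fold change 0.67 ± 0.09) and 1.23-fold higher in TAg than T0 (0.30 ± 0.09, edgeR adjusted p = 0.00613), although the latter was -0.03 with library totals in place of TMM and was lost without T0 replicate 3 (0.18, adjusted p = 0.0894). TAg was 1.39-fold lower than NAg (-0.47 ± 0.09, adjusted p = 0.000213). The PI responses were 0.65 ± 0.09 in naive and 0.92 ± 0.09 in tolerized cells, and only 0.07 and 0.12, without a call, with library totals.

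*Tgfbr2* (ENSMUSG00000032440, chr9:115993415-116084383) encodes the type II receptor, which binds the ligand first. Normalized counts were 5977, 5544 and 5331 in N0, 4304, 4126 and 4387 in T0, 1542, 1578 and 1542 in NAg, 1767, 1856 and 1703 in TAg, 5212, 5217 and 5793 in NPI and 4124, 4196 and 4232 in TPI. All 6 Ag libraries lay below all 12 others, and the PI libraries stayed within or near the range of their resting group. Ag lowered *Tgfbr2* 3.61-fold in naive cells (log2 fold change -1.85 ± 0.07) and 2.41-fold in tolerized cells (-1.27 ± 0.06). The 95% interval of the PI response was -0.18 to 0.07 in naive and -0.15 to 0.09 in tolerized cells, whereas with library totals the estimates were -0.63 and -0.83 and were called. T0 was 1.31-fold lower than N0 (-0.40 ± 0.06, edgeR adjusted p = 0.0001) and TPI 1.29-fold lower than NPI (-0.37 ± 0.06, adjusted p = 4.9e-05). In contrast, TAg was 1.14-fold higher than NAg (0.19 ± 0.07, adjusted p = 0.0219), a call that was lost without NAg replicate 3 or TAg replicate 2 and with DESeq2's size factors. In RNA from whole cell preparations, fewer cells that carry a transcript and less transcript per cell cannot be told apart.

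*Tgfbr3* (ENSMUSG00000029287, chr5:107535589-107718648) encodes betaglycan, a co-receptor that presents ligand to the type II receptor, and fell the most of all members after Ag. It was at 1966, 2408 and 2002 in N0, 851, 875 and 743 in T0, 201, 168 and 238 in NAg, 247, 204 and 284 in TAg, 2254, 1898 and 2316 in NPI and 995, 931 and 780 in TPI. At rest and after PI, naive libraries held more than tolerized ones without overlap, and after Ag the groups overlapped at a low level. Ag lowered *Tgfbr3* 10.5-fold in naive cells (log2 fold change -3.39 ± 0.14) and 3.35-fold in tolerized cells (-1.75 ± 0.14). T0 was 2.58-fold lower than N0 (-1.37 ± 0.13, edgeR adjusted p = 9.34e-07) and TPI 2.39-fold lower than NPI (-1.26 ± 0.12, adjusted p = 2.17e-07), whereas TAg against NAg was at 0.28 ± 0.15 and was not called (adjusted p = 0.165). The PI responses had 95% intervals of -0.22 to 0.26 in naive and -0.12 to 0.38 in tolerized cells. With library totals they were -0.56 and -0.68 and were called. A pseudogene, *Gm8145*, lies on the opposite strand within the span of *Tgfbr3* but shares none of its exons.

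*Smad2* (ENSMUSG00000024563, chr18:76401234-76465385) encodes a receptor-activated Smad. It was at 903, 864 and 918 in N0, 739, 734 and 837 in T0, 1255, 1433 and 1397 in NAg, 1216, 1278 and 1154 in TAg, 1131, 1075 and 1090 in NPI and 832, 892 and 825 in TPI. The Ag libraries lay above all others, and TPI below NPI without overlap. The Ag response was similar in size in both states, with a log2 fold change of 0.60 ± 0.07 in naive and 0.66 ± 0.07 in tolerized cells. The difference between these responses had a 95% interval of -0.15 to 0.26. NPI was 1.23-fold higher than N0 (0.30 ± 0.07, edgeR adjusted p = 0.00109), which turned to -0.28 with library totals, as did TPI against T0 (0.14 ± 0.07, not called) to -0.66. TPI was 1.29-fold lower than NPI (-0.37 ± 0.07, adjusted p = 0.000222). T0 against N0 was at -0.22 ± 0.07 (adjusted p = 0.0362), and that call was lost in 4 of 6 fits with a library left out, namely N0 replicate 1 or 3 or T0 replicate 1 or 2. It was also lost in 6 of the 8 alternatives that kept all libraries, among them sex as a covariate (-0.12, adjusted p = 0.411). TAg against NAg was called only without NAg replicate 1 (-0.21), of the 6 fits with a library left out, and TPI against T0 only without T0 replicate 3 (0.18). With all libraries kept, TAg against NAg was also called lower with DESeq2 and with its size factors (both -0.20). TPI against T0 was called higher with DESeq2 (0.18), its size factors (0.18), only the groups compared (0.16) and sex as a covariate (0.19). With library totals it was called lower.

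*Smad3* (ENSMUSG00000032402, chr9:63494574-63605801), the other receptor-activated Smad, responded more strongly than *Smad2* to Ag. Normalized counts were 1580, 1678 and 1679 in N0, 1415, 1482 and 1583 in T0, 6127, 5672 and 4757 in NAg, 3731, 3725 and 3940 in TAg, 2418, 2626 and 2533 in NPI and 3119, 3252 and 3346 in TPI. NAg lay above TAg and NPI below TPI, in both cases without overlap, while N0 and T0 overlapped. Ag raised it 3.35-fold in naive cells (log2 fold change 1.75 ± 0.08) and 2.54-fold in tolerized cells (1.35 ± 0.08), and PI raised it 1.53-fold and 2.17-fold. TAg was 1.45-fold lower than NAg (-0.54 ± 0.08, edgeR adjusted p = 5.12e-06) and TPI 1.28-fold higher than NPI (0.36 ± 0.08, adjusted p = 0.000541). With library totals the naive PI response was 0.04 and was not called.

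**Figure D2:**
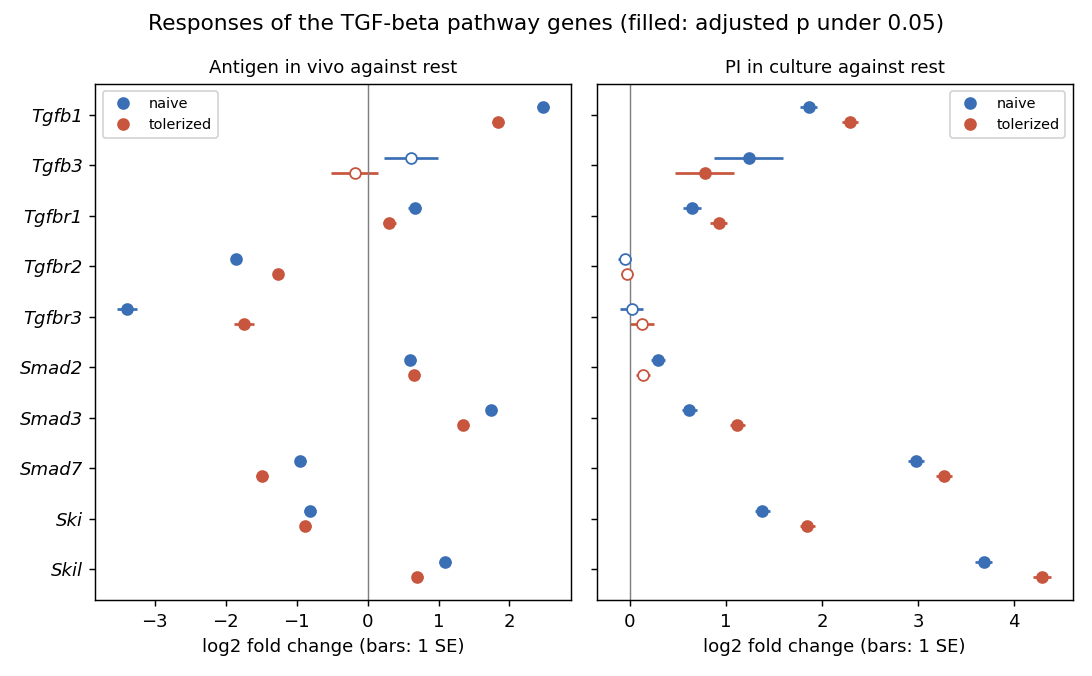
Log2 fold changes (horizontal axis, with 1 SE) of the 10 genes after Ag in vivo (left) and after PI in culture (right), against rest, in naive (blue) and tolerized (red) cells, with filled points for genes called. *Tgfbr2* and *Tgfbr3* fell after Ag and lie near 0 after PI with the TMM scaling plotted (below 0 with library totals), and *Smad7* and *Ski* lie below 0 after Ag and above 0 after PI.

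*Smad7* (ENSMUSG00000025880, chr18:75527183-75555589) encodes the inhibitory Smad of this pathway and is itself a target of TGF-beta signaling. It was at 2680, 2778 and 2393 in N0, 1861, 2226 and 2078 in T0, 1468, 1296 and 1308 in NAg, 757, 749 and 691 in TAg, 19752, 21155 and 21133 in NPI and 20167, 20490 and 19033 in TPI. The 2 stimuli moved it in opposite directions, and every Ag library lay below every resting library of the same state. Ag lowered *Smad7* 1.93-fold in naive cells (log2 fold change -0.95 ± 0.08) and 2.81-fold in tolerized cells (-1.49 ± 0.08). PI raised it 7.9-fold (2.98 ± 0.08) and 9.68-fold (3.28 ± 0.08). T0 was 1.27-fold lower than N0 (-0.35 ± 0.08, edgeR adjusted p = 0.00248) and TAg 1.85-fold lower than NAg (-0.89 ± 0.08, adjusted p = 9.88e-09). TPI and NPI overlapped, with a 95% interval of the difference of -0.20 to 0.09.

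*Ski* (ENSMUSG00000029050, chr4:154528184-154596701) encodes a repressor of Smad-dependent transcription. Its counts were 3448, 3477 and 3183 in N0, 2728, 2927 and 3114 in T0, 1743, 2075 and 1942 in NAg, 1578, 1710 and 1480 in TAg, 9245, 8309 and 8756 in NPI and 11380, 10047 and 10180 in TPI. Like *Smad7* it was lowest after Ag and highest after PI. The Ag responses were -0.81 ± 0.08 in naive and -0.88 ± 0.08 in tolerized cells, and PI raised *Ski* 2.6-fold in naive and 3.6-fold in tolerized cells. TAg was 1.21-fold lower than NAg (log2 fold change -0.27 ± 0.08, edgeR adjusted p = 0.00843), a call lost without NAg replicate 2 or TAg replicate 3 and with library totals, and TPI was 1.2-fold higher than NPI (0.26 ± 0.08, adjusted p = 0.00815). T0 lay below N0 without overlap but did not pass the test (-0.21 ± 0.08, adjusted p = 0.0663), although it did without T0 replicate 3 (-0.26, adjusted p = 0.0250). The call of TPI against NPI was lost with library totals.

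*Skil* (ENSMUSG00000027660, chr3:30993980-31021499) encodes SnoN, a relative of SKI, and had the largest PI response of the 10 genes. It was at 1896, 1652 and 1804 in N0, 1413, 1532 and 1364 in T0, 4069, 3658 and 3654 in NAg, 2356, 2251 and 2397 in TAg, 20782, 23633 and 24311 in NPI and 29374, 29450 and 25684 in TPI. Naive and tolerized libraries did not overlap in any of the 3 conditions, and TPI was the higher group after PI only. PI raised *Skil* 12.8-fold in naive cells (log2 fold change 3.68 ± 0.09) and 19.6-fold in tolerized cells (4.29 ± 0.09), and Ag raised it 2.13-fold and 1.63-fold. T0 was 1.24-fold lower than N0 (-0.31 ± 0.08, edgeR adjusted p = 0.00798), TAg 1.62-fold lower than NAg (-0.70 ± 0.08, adjusted p = 3.11e-07) and TPI 1.23-fold higher than NPI (0.30 ± 0.08, adjusted p = 0.00381). The differences at rest and after PI with library totals were -0.20 and 0.18 and were not called.

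Library totals in place of TMM moved the median log2 fold change of all tested genes by -0.40 in NAg against N0, -0.33 in TAg against T0, -0.58 in NPI against N0 and -0.80 in TPI against T0, and DESeq2's size factors by at most 0.05 (NAg against N0). With library totals, the PI counts of members called higher and lower became 4 and 3 in naive cells and 5 and 3 in tolerized cells, while the Ag counts stayed at 5 and 4 in naive cells and became 4 and 4 in tolerized cells. The rise of *Smad7*, *Ski* and *Skil* after PI, and the fall of *Tgfbr2* and *Tgfbr3* after Ag, held under both scalings.

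The comparison of tolerized with naive cells asks how the pathway differs once tolerance is established. At rest, *Tgfbr3* differed the most between the states and was lower in tolerized cells, and after Ag *Smad7*, *Tgfb1* and *Skil* were the lower ones by the largest margins. In T0 against N0, 1 member was called higher (*Tgfb3*) and 5 lower (*Tgfbr2*, *Tgfbr3*, *Smad2*, *Smad7* and *Skil*), beside 8.42% and 12% of all tested genes. In TAg against NAg, 1 was higher (*Tgfbr2*) and 6 lower (*Tgfb1*, *Tgfbr1*, *Smad3*, *Smad7*, *Ski* and *Skil*), beside 20.9% and 18.5%. In TPI against NPI, 4 were higher (*Tgfb1*, *Smad3*, *Ski* and *Skil*) and 3 lower (*Tgfbr2*, *Tgfbr3* and *Smad2*), beside 18.2% and 19.7%. The median log2 fold change of the members was -0.21 in T0 against N0, -0.37 in TAg against NAg and 0.22 in TPI against NPI, beside -0.08, 0.01 and -0.04 over all tested genes.

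The resting comparison moved together with other cell types. Of the 10 neutrophil markers 9 were called higher in T0 than N0, as were 3 of 10 erythroid and 4 of 5 regulatory T cell markers. The part of regulatory T cells in these differences was not tested. When scores of erythroid and myeloid markers were added to the model, 0 of 10 members were called at rest by edgeR (5 at an unadjusted p under 0.05, all lower), with *Tgfbr3* at -1.34 (adjusted p = 0.0806), and 5 in TAg against NAg and 3 in TPI against NPI. The other resting calls lost were *Tgfbr2* at -0.38 ± 0.14, *Smad7* at -0.50 ± 0.14 and *Skil* at -0.53 ± 0.16. *Smad2* was at -0.03 ± 0.14 and *Tgfb3* at 0.52 ± 0.70. Their SEs were all larger than without the scores, as for *Tgfbr3* (0.31 and 0.13). In TPI against NPI the calls lost were those of *Tgfb1* (0.31, adjusted p = 0.0676), *Smad2* (-0.24, adjusted p = 0.0991), *Smad3* (0.25, adjusted p = 0.101) and *Skil* (0.18, adjusted p = 0.297), and in TAg against NAg those of *Tgfbr2* (0.20, adjusted p = 0.156) and *Ski* (-0.07, adjusted p = 0.649). In TAg against NAg, 10 of 10 neutrophil markers were higher, and of 12 macrophage, monocyte and dendritic cell markers 2 were higher and 8 lower. In TPI against NPI, 6 of 10 neutrophil and 4 of 5 regulatory T cell markers were higher. With library totals in place of TMM, the members called higher and lower were 2 and 5 in TAg against NAg and 2 and 3 in TPI against NPI, and with DESeq2's size factors they were 0 and 7 in TAg against NAg.

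**Figure D3:**
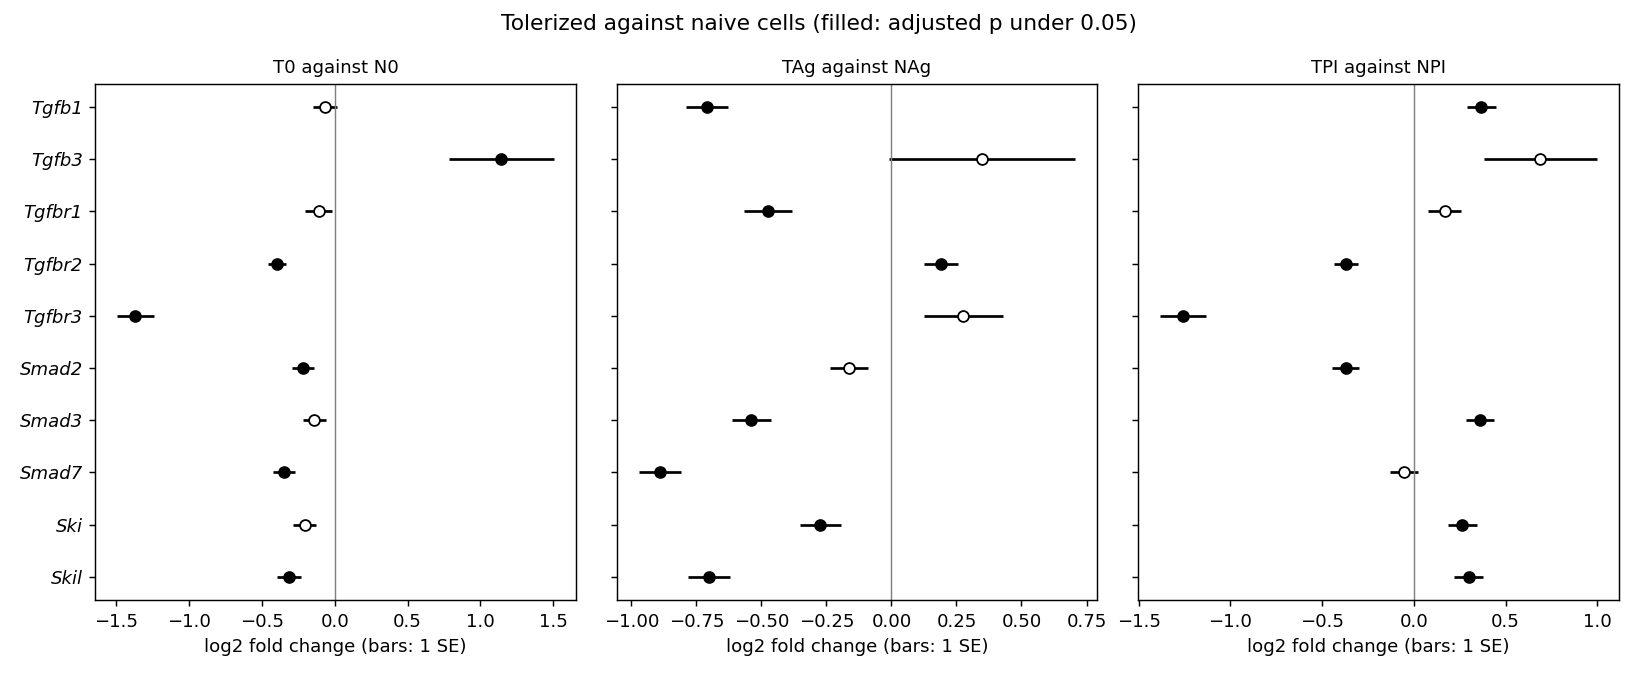
Log2 fold changes (horizontal axis, with 1 SE) of tolerized against naive cells at rest (left), after Ag (middle) and after PI (right), with filled points for genes called. *Tgfbr3* lies at -1.37 at rest and -1.26 after PI but at 0.28 after Ag, and *Tgfb1* lies at -0.71 after Ag and 0.37 after PI.

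The responses of the 2 cell states were compared directly as interaction contrasts. Ag raised *Tgfb1*, *Smad3* and *Skil* less, and lowered *Tgfbr2* and *Tgfbr3* less, in tolerized than in naive cells, and lowered *Smad7* more. Of the 10 members, 2 had a higher and 5 a lower Ag response in tolerized cells, beside 14.6% and 7.09% of all tested genes. The difference was largest for *Tgfbr3*, at 1.64 ± 0.20 on the log2 scale (edgeR adjusted p = 7.75e-06), followed by *Tgfb1* at -0.64 ± 0.12 (adjusted p = 0.000239), *Tgfbr2* at 0.59 ± 0.09 (adjusted p = 4.35e-05) and *Smad7* at -0.54 ± 0.11 (adjusted p = 0.00101). The difference for *Tgfbr1*, at -0.36 ± 0.13 (adjusted p = 0.0467), was lost in 9 of 12 fits with a library left out. That for *Skil*, at -0.39 ± 0.11 (adjusted p = 0.0161), was lost without N0 replicate 2 or T0 replicate 2, and that for *Tgfb3* was called only without N0 replicate 1 (-1.51). *Smad3* was at -0.40 ± 0.11 (adjusted p = 0.00948). With the marker scores in the model, the calls of *Tgfbr1* (adjusted p = 0.0563), *Smad3* (-0.31, adjusted p = 0.0654) and *Skil* (-0.30, adjusted p = 0.110) were lost. For PI, 4 members had a higher and 0 a lower response in tolerized cells, beside 12.7% and 7.52%, with 0 lower also at an unadjusted p under 0.05 and in DESeq2. These were *Skil* at 0.61 ± 0.11 (adjusted p = 0.000337), *Smad3* at 0.50 ± 0.11 (adjusted p = 0.00169), *Ski* at 0.47 ± 0.11 (adjusted p = 0.00316) and *Tgfb1* at 0.44 ± 0.12 (adjusted p = 0.00846). *Smad7* was at 0.29 ± 0.11 and was not called (adjusted p = 0.0596), but was called with DESeq2, with its size factors, with the marker scores and without N0 replicate 3 or T0 replicate 2 or 3. With library totals the counts were 2 and 3 for Ag and 2 and 1 for PI, where *Smad2* was the lower one at -0.37.

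**Figure D4:**
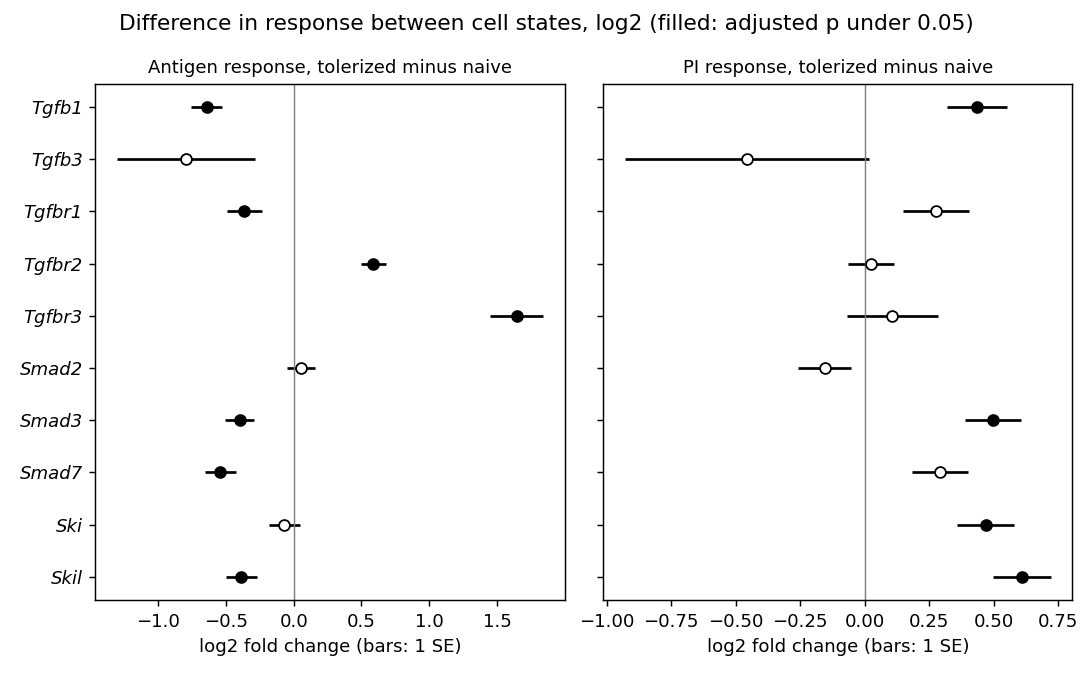
Difference between the responses of tolerized and naive cells (horizontal axis, log2, with 1 SE) to Ag (left) and to PI (right), with filled points for genes called. *Tgfb1*, *Smad3* and *Skil* lie below 0 for Ag and above 0 for PI.

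Levels of the members were compared per kilobase of annotated exon sequence. In N0 the order was *Tgfbr2* (695 ± 40.7 normalized counts per kilobase, SD, n = 3), *Ski* (606 ± 29.1), *Smad7* (579 ± 44.2), *Tgfb1* (515 ± 33.7), *Tgfbr3* (325 ± 37.5), *Smad3* (297 ± 10.2), *Smad2* (252 ± 7.84), *Skil* (184 ± 12.7), *Tgfbr1* (163 ± 14.5) and *Tgfb3* (4.24 ± 2.92). The neighbours *Ski* and *Smad7*, *Smad7* and *Tgfb1*, *Tgfbr3* and *Smad3*, and *Skil* and *Tgfbr1* overlapped between libraries. In T0, *Tgfbr2*, *Ski*, *Tgfb1* and *Smad7* led with 528, 526, 492 and 455, each overlapping the next, and *Tgfbr3* had moved to the ninth place with 126 ± 10.7. After Ag, *Tgfb1* led with 2869 ± 78.9 in NAg and 1756 ± 162 in TAg, followed by *Smad3* with 996 ± 126 and 685 ± 22.2, without overlap. After PI, *Smad7* led with 4574 ± 178 in NPI and 4401 ± 169 in TPI, followed by *Skil* with 2363 ± 193 and 2906 ± 222. *Tgfb3* was last in all 6 groups. With the length of the longest annotated transcript in place of all exons, *Smad7*, *Ski* and *Tgfb1* were at 612, 610 and 606 in N0, and *Skil* rose to 266.

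A wider list of 69 genes of TGF-beta, activin and BMP signaling gave the surroundings of these members, and 64 of them passed the filter on low counts. Its genes called higher and lower numbered 13 and 14 in T0 against N0, 10 and 18 in TAg against NAg, and 25 and 13 in TPI against NPI. After stimulation they numbered 24 and 18 in NAg against N0, 25 and 20 in TAg against T0, 38 and 8 in NPI against N0, and 35 and 8 in TPI against T0. The share of the list called in either direction, beside that of all tested genes, was 42.2% and 20.4% in T0 against N0, 43.8% and 39.4% in TAg against NAg, and 59.4% and 37.9% in TPI against NPI. It was 65.6% and 65.5% in NAg against N0, 70.3% and 59.8% in TAg against T0, 71.9% and 61.4% in NPI against N0, and 67.2% and 68.3% in TPI against T0, so in NAg against N0 and TPI against T0 it lay near the share of all genes. With the marker scores in the model, 2 genes of the list were called in T0 against N0. Over the list, log2 fold changes had a median of 0.47 in NPI against N0 and 0.65 in TPI against T0, beside -0.06 and -0.10 over all tested genes. With library totals the PI counts were 23 and 21 in naive cells and 23 and 26 in tolerized cells, those of TPI against NPI were 20 and 16, and those of T0 against N0 were 15 and 8. They were 16 and 13 in TAg against NAg, 20 and 26 in NAg against N0 and 18 and 25 in TAg against T0.

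**Figure D5:**
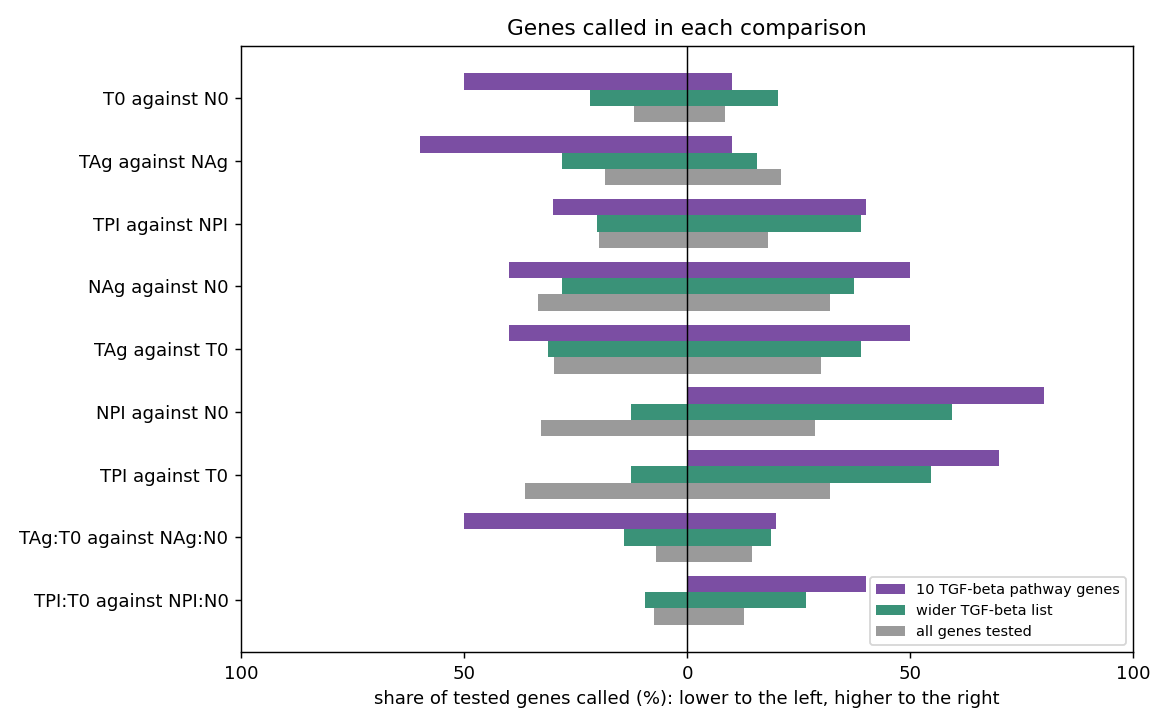
Share of genes called higher (bars to the right) and lower (bars to the left) in each comparison, in percent of the tested genes, for the 10 members, the wider list and all genes tested. The PI bars of the 10 members extend to the right only, with 8 genes in NPI against N0 and 7 in TPI against T0.

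Of the 15 tested genes of ligands and their latency, 3 were higher and 2 lower in TAg than NAg, and 7 were higher and 1 lower in TPI than NPI. The share called was 33.3% in TAg against NAg, beside 39.4% of all tested genes, and 53.3% in TPI against NPI, beside 37.9%. *Itgb8*, a subunit of the integrin that releases active TGF-beta, was at 89.8 ± 50.5 (SD, n = 3) in N0 and 266 ± 49.4 in T0, 325 ± 163 in NAg and 2195 ± 177 in TAg, and 641 ± 73.8 in NPI and 2857 ± 250 in TPI. TAg was 6.79-fold higher than NAg (log2 fold change 2.76 ± 0.33, edgeR adjusted p = 2.61e-05). Its partner *Itgav* rose to 16794 ± 1463 in TPI against 4088 ± 529 in NPI, 4.11-fold higher (2.04 ± 0.11), and its PI response was larger in tolerized cells by 1.51 ± 0.15 on the log2 scale (adjusted p = 7.19e-07). *Furin*, a protease that cleaves the TGF-beta precursor, rose from 789 ± 64.7 in N0 to 21018 ± 1888 in NAg, 26.6-fold higher (4.73 ± 0.15). The ligand *Tgfb2* was at 7.40 ± 4.92 in T0 and 73.4 ± 20.7 in TAg, 9.87-fold higher (3.30 ± 0.39). *Inhba*, which encodes an activin subunit, had at most 3 reads in any resting library and reached 126 ± 27.2 in NAg, 56.7 ± 18 in TAg, 65.4 ± 6.22 in NPI and 138 ± 30.6 in TPI.

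Of the 12 tested receptor genes, 4 were higher and 3 lower in T0 than N0, beside 8.42% and 12% of all tested genes. These counts are without the marker scores, with which 2 genes of the whole wider list were called at rest. *Eng*, which encodes the co-receptor endoglin, was at 29.9 ± 3.99 in N0 and 135 ± 22.4 in T0, 4.49-fold higher (log2 fold change 2.17 ± 0.26, edgeR adjusted p = 3.17e-06). *Acvrl1*, which encodes the type I receptor ALK1, was at 562 ± 107 in N0 and 150 ± 29.5 in T0, 3.74-fold lower (-1.90 ± 0.16), and at 201 ± 18 in NPI and 30.9 ± 8.11 in TPI. After Ag it was at 25.0 ± 7.39 in NAg and 33.4 ± 0.39 in TAg. Its Ag response differed between cell states by 2.32 ± 0.31 (adjusted p = 8.13e-06), with the smaller fall in tolerized cells, which were lower at rest. Of the 5 further Smads, *Smad5*, which transduces BMP signals, had a PI response larger in tolerized cells by 1.19 ± 0.11 (adjusted p = 5.58e-08), and of 20 tested regulators *Tab1*, a partner of the kinase TAK1, had one lower by -1.08 ± 0.17 (adjusted p = 7.94e-05).

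Among 12 genes known as targets of TGF-beta, 11 were higher and 0 lower in NPI than N0 by edgeR (0 lower also at an unadjusted p under 0.05 and in DESeq2) and 8 were higher and 1 lower in TPI than T0, beside 6 higher and 1 lower in NAg against N0 and 5 and 1 in TAg against T0. Of all tested genes, 28.6% were higher and 32.7% lower in NPI than N0, and 32% and 36.3% in TPI than T0. After Ag, 58.3% of the targets were called in naive and 50% in tolerized cells, below the 65.5% and 59.8% of all tested genes. With the marker scores in the model, 8 targets were higher in NPI than N0 and 6 in TPI than T0. The counts of targets alone are not given with library totals in place of TMM. For the whole wider list, which holds these targets, those counts were 23 higher and 21 lower in NPI than N0. In TPI against T0 they were 23 and 26. In the naive cells sex also changed together with PI. *Cdkn1a*, which encodes the cell cycle inhibitor p21, rose from 7.62 ± 5.69 in N0 to 556 ± 17.1 in NAg and 1656 ± 244 in NPI, and from 14.4 ± 4.25 in T0 to 127 ± 29.1 in TAg and 1981 ± 112 in TPI. It was 4.34-fold lower in TAg than NAg (log2 fold change -2.12 ± 0.18, edgeR adjusted p = 1.4e-07), and its Ag response was lower in tolerized cells by -3.02 ± 0.52. *Itgae*, which encodes the integrin CD103, was at 122 ± 25.6 in N0 and 853 ± 441 in T0, 7.01-fold higher (2.81 ± 0.44, adjusted p = 0.000734), and fell to 88.1 ± 33.0 in TAg. At rest, 9 of 10 neutrophil and 4 of 5 regulatory T cell markers were also higher in tolerized cells, and with the marker scores in the model 0 of the 12 targets were called in T0 against N0 by edgeR (1 at an unadjusted p under 0.05, higher). The Ag response of *Itgae* differed between cell states by -2.40 ± 0.71 (adjusted p = 0.0296). *Tgfbi*, which encodes a matrix protein, was at 25.9 ± 15.7 in NAg and 126 ± 48.4 in TAg, 4.89-fold higher (2.29 ± 0.41). In the same comparison 10 of 10 neutrophil markers were higher. Of 12 macrophage, monocyte and dendritic cell markers, 2 were higher and 8 lower. The part of other cell types in the difference of *Tgfbi* was not tested.

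In the wider list, 12 genes had a higher and 9 a lower Ag response in tolerized than naive cells, and 17 a higher and 6 a lower PI response. Of all tested genes, 14.6% and 7.09% had a higher and a lower Ag response, and 12.7% and 7.52% a higher and a lower PI response. With library totals the PI counts of the list were 9 and 13, and those of all tested genes were 1241 and 3234.

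The profiles of the 4 members with the widest range over groups were set beside all genes outside the list whose normalized counts averaged 50 or more, by the Pearson correlation of log2 normalized counts over the 18 libraries. The libraries of a group share its treatment, and these values are a description. The most similar genes were *C130039O16Rik*, *P2ry10* and *Mll5* for *Smad7* (r = 0.993, 0.991 and 0.990), and *Lemd3*, *Ccnl1* and *Sat1* for *Skil* (r = 0.995, 0.995 and 0.993). For *Tgfbr3* they were *Npc2*, *Sh3pxd2a* and *Lyst* (r = 0.986, 0.985 and 0.980), and for *Ski* they were *Mll5*, *Elovl5* and *Bsdc1* (r = 0.992, 0.991 and 0.990). Among the members, r was highest for *Smad7* and *Ski* (0.989), followed by *Tgfbr2* and *Tgfbr3* (0.968) and by *Tgfb1* and *Smad3* (0.911).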

How the data were processed

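The data comprised 18 RNA-seq libraries of CD4+ T cells (6 groups of 3). Raw counts per Ensembl gene were deposited by the authors, who used TopHat 2.1.1 with mm9 (NCBIM37) and HTSeq 0.9.1, and did not normalize them. The counting mode and strand are not given in the sources used here. Names and positions came from an NCBIM37 annotation for 37205 of 37991 genes.

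The counts were tested in edgeR 4.0.16 under R 4.3.3, with DESeq2 1.42.0 as an alternative. Genes that reached a group mean of 3 normalized counts in any group entered a model of the 6 groups with TMM scaling. The test was the quasi-likelihood F test of edgeR with robust estimates, and p-values were adjusted by Benjamini-Hochberg over all tested genes. To normalize a count, it was divided by its library's TMM-scaled size, itself relative to the geometric mean of all libraries. Errors of folds are SEs on the log2 scale. The scripts were tested on simulated data.

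The 10 members, the wider list and the marker lists were chosen with earlier results of these data known. From the wider list, up to 3 genes per comparison were named, by the size of the log2 fold change among those called, with replicates that did not overlap (not required for the interaction contrasts) and with an average of at least 10 normalized counts in a compared group. A gene named by this rule is not reported here. For the likeness of profiles, 3 genes per member were named by r, and promoters were shown for members called in the same direction in all 4 responses. The alternatives were DESeq2, its size factors, library totals, no filter on low counts, only the groups compared, the replicate number as a block, marker scores or sex as covariates, the longest transcript as length, and left-out libraries. The study calls the replicates biological, but the labels do not tie each to its own mouse, so p-values measure the spread between these libraries.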

Additional observations from a re-analysis of the deposited data

Results flagged for a closer look

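The responses of tolerized and naive cells differed for 7 members after Ag and 4 after PI, each by the interaction contrast of edgeR's quasi-likelihood test. For Ag, the difference (tolerized minus naive, log2) was 1.64 for *Tgfbr3* and 0.59 for *Tgfbr2*, which fell less in tolerized cells, and -0.64 for *Tgfb1*, -0.40 for *Smad3*, -0.39 for *Skil* and -0.36 for *Tgfbr1*, which rose less. It was -0.54 for *Smad7*, which fell more. For PI, the difference was 0.61 for *Skil*, 0.50 for *Smad3*, 0.47 for *Ski* and 0.44 for *Tgfb1*, which all rose more in tolerized cells. Of these, *Tgfbr1* and *Skil* for Ag and *Tgfb1* and *Smad3* for PI lost the call with library totals in place of TMM. With erythroid and myeloid marker scores in the model, *Tgfbr1* (adjusted p = 0.0563), *Smad3* (adjusted p = 0.0654) and *Skil* (adjusted p = 0.110) lost it for Ag, and with sex as a covariate *Tgfbr1* did (adjusted p = 0.0774).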

How the results depend on the processing

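Of the members' fold changes under the alternatives that kept all libraries, 642 stayed on their side of the threshold with the same direction, 41 lost and 14 gained the call, and 23 changed sign. With a library left out, these numbers were 614, 28, 9 and 9. With marker scores as covariates, 0 members were called in T0 against N0, 3 in TPI against NPI and 4 for the Ag interaction, and 2 genes of the wider list in T0 against N0. Of all tested genes, 110 were called instead of 3519 in T0 against N0, 3861 instead of 6794 in TAg against NAg, 3832 instead of 6537 in TPI against NPI and 6650 instead of 11768 in TPI against T0. With only the groups compared, 3 members were called in T0 against N0. With sex as a covariate 1834 genes were called in T0 against N0, and 2284 without N0 replicate 2. The causes were not tested.

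Signs changed with library totals for *Tgfb1* (0.037) and *Tgfbr1* (0.00431) in T0 against N0, *Smad2* in TAg against NAg (0.017), *Tgfbr1* in TAg against T0 (-0.034), *Tgfbr3* (-0.56) and *Smad2* (-0.28) in NPI against N0, *Tgfb3* (-0.018), *Tgfbr3* (-0.68) and *Smad2* (-0.66) in TPI against T0, *Ski* for the Ag interaction (0.00708), and *Tgfbr2* (-0.20) and *Tgfbr3* (-0.12) for the PI interaction. With DESeq2 *Tgfbr2* in TPI against T0 was at 0.00777 and with its size factors at 0.00786. With only the groups compared, *Tgfb1* in T0 against N0 was at 0.00617 and *Tgfbr2* for the PI interaction at -0.058. With marker scores, *Ski* in T0 against N0 was at 0.16, *Tgfbr3* in NPI against N0 at -0.034, *Smad2* in TPI against T0 at -0.037 and *Smad2* for the Ag interaction at -0.032. With sex as a covariate, *Tgfbr2* (0.018) and *Tgfbr3* (-0.24) in NPI against N0 and *Tgfbr2* for the PI interaction (-0.024) changed sign. With a library left out, *Tgfbr3* in NPI against N0 ranged from -0.077 to 0.10, *Tgfbr2* for the PI interaction from -0.00513 to 0.078, *Ski* for the Ag interaction from -0.13 to 0.00143, *Smad2* for the Ag interaction from -0.00141 to 0.14 and *Tgfbr2* in TPI against T0 from -0.080 to 0.00164. *Tgfb3* was called in NAg against N0 without N0 replicate 1 (1.29) or NAg replicate 3 (0.95).

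With the replicate block, 6 members were called in T0 against N0, 7 in TAg against NAg, 7 in TPI against NPI, 9 for each Ag response, 8 and 7 for the PI responses in naive and tolerized cells, and 7 and 4 for the interactions, and no member's call changed. No pairing by number was seen, as 8 of 45 same-numbered pairs had a correlation of deviations over 0.1 (median -0.02). Of 90 pairs with other numbers, 30 did (median 0.009), and 3 of 18 libraries correlated best with their own number. The labels do not say whether a number marks a shared animal or day. Depth limits *Tgfb3*, with 8 to 74 reads per library.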
